A study of Homo sapiens with 6 samples.

Results

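A set of 29 rows of the deposited gene-level count table held at most 2 reads in each wild-type library and at least 8 reads in each of 4 THUMPD2 knockout libraries of human HEK293T cells. The thresholds were met by 33 of 59087 rows, and SLC8A1-AS1, NCAM1, JAKMIP2-AS1 and CHRM3-AS2 were then left out by name. The members were therefore chosen by their own knockout and wild-type counts, so those counts and the folds made from them are a description and carry no test. HEK293T is a transformed human embryonic kidney line. THUMPD2 encodes an RNA methyltransferase that acts on U6, the small nuclear RNA at the catalytic centre of the spliceosome. The groups were the knockout lines KO1 and KO2, both labelled as THUMPD2 knockouts, and the line labelled wild type (WT), with 2 libraries each. No other treatment or allele is labelled for any group. How the lines were made, and whether each is 1 clone, is not given in the sources used here, and with 1 WT line the loss of THUMPD2 and other differences between lines cannot be told apart.

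Much of the genome outside the genes a cell uses carries transcripts at very low level. Long intergenic noncoding RNAs (lincRNAs) lie between genes, antisense RNAs lie over a gene on the other strand, and pseudogenes are damaged copies of genes. A noncoding transcript often starts close to a protein-coding gene that is read in the other direction, and reads from overlapping genes can be assigned to the right one only if the strand is kept.

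The THUMPD2 row held 3 and 0 reads in KO1, 0 and 1 in KO2, and 1 and 2 in WT. That row was thus near 0 in all 6 libraries, WT included, and does not check the genotype labels. The library kit keeps the strand of each transcript, but the strand setting of the counting is not given in the sources used here. Rows with an exon over an exon of the other strand held 89.9% of all reads, and the median mean count of protein-coding rows was 32.7 reads where at least 100 exonic bases lay over an opposite-strand exon, against 2.33 reads where no gene lay opposite. The cytoskeletal gene VIM, abundant in HEK293T, is overlapped by VIM-AS1, whose row held 23367 and 25010 reads in KO1, 44695 and 47482 in KO2, and 26970 and 28026 in WT. The VIM row itself held far fewer, at 296 and 313 reads in KO1, 678 and 692 in KO2, and 339 and 352 in WT. Rows are therefore named here as the table names them, and a read in a row may come from the gene on its other strand. Gene functions given below are those of the gene a row is named for, and which strand its reads came from was not tested. Total counts were 7414339 to 8391143 reads per library.

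The cell line was checked by marker genes, each read also through its opposite-strand row. AF106564.1, which overlaps the neurofilament gene NEFM, held 74 and 67 reads in KO1, 6469 and 6574 in KO2, and 719 and 772 in WT, and the keratin row KRT8 held 2560 to 4914 reads in all libraries. The kidney lineage factor PAX2 had 0 to 5 reads. LHX1 had none in its own row, and the row opposite, AC243773.1, held 1 and 0 in KO1, 0 and 7 in KO2, and 17 and 13 in WT. Summed over the 7 genes of the HEK293 list with the rows opposite them, the counts were 48971 and 51809 in KO1, 101294 and 105704 in KO2, and 56706 and 59979 in WT. Most of these reads were in VIM-AS1 and AL133415.1, the rows opposite VIM. Over 15 genes that mark blood, liver, fibroblasts, muscle, melanocytes and glia and the rows opposite them, the sums were 5160 and 5180 in KO1, 6070 and 6381 in KO2, and 6840 and 7128 in WT, most of it PMEL, and the rows of ALB, AFP and DES themselves were at 0, with 4 to 15 reads opposite DES in AC053503.4. The part of these differences between lines in the results below was not tested.

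Over all 29 members the summed counts were 801 and 742 in KO1, 942 and 975 in KO2, and 15 and 15 in WT. No read was found in either WT library for 13 members, 1 to 3 reads over both for 15, and 4 for AC113383.1. The members were scarce in the knockout lines as well. Their mean knockout count ran from 9.25 reads for IFNWP19 to 113.5 reads for RAC1P9, with a median of 23.2. In CPM, reads scaled by library size and not by gene length, the median of the members' mean knockout level was 2.86, against 5.12 over the 14184 rows tested, and 5 members were above 5 CPM. In bulk RNA, few cells with many copies and many cells with few copies cannot be told apart.

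**Figure D1:**
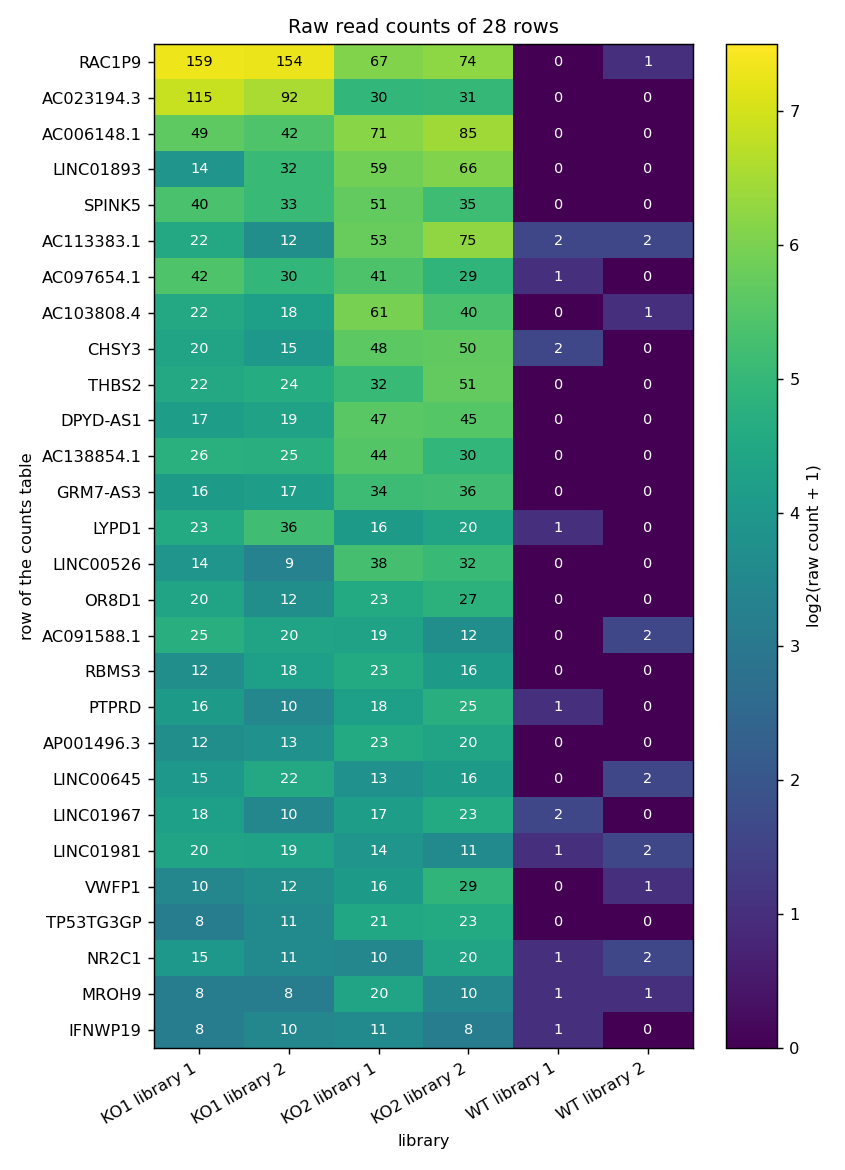
Heat map of the read count of 28 members (down the page) in the 2 KO1, 2 KO2 and 2 WT libraries (across), coloured by log2(count + 1) with the count printed in each cell. The WT columns hold 0 to 2 reads by the rule, and the knockout columns run from 8 reads to 159 reads in RAC1P9.

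Of the 29 members, 27 could be placed on GRCh38 with the GENCODE v29 annotation, and AC097654.1 and AC138854.1 are named only. AC097654.1 held 42 and 30 reads in KO1, 41 and 29 in KO2, and 1 and 0 in WT. AC138854.1 held 26 and 25 reads in KO1, 44 and 30 in KO2, and none in WT. By annotated type, 10 of the placed members were protein-coding, 7 lincRNA, 5 antisense and 5 pseudogenes. Protein-coding rows thus made up 37% of the members, against 66.8% of the 11381 placed rows with at least 8 reads in each knockout library, and lincRNA rows 25.9% against 4%. Antisense rows made up 18.5% of the members against 19.9% of those rows, and pseudogenes 18.5% against 5.5%. Among all 56563 placed rows, 35% were protein-coding, 13.2% lincRNA, 9.76% antisense and 26.8% pseudogenes, so the direction for pseudogenes depends on the background. These shares are a description, since a row's type goes with its level and the rule selected on level.

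By what lay opposite, 9 placed members shared at least 100 exonic bases with an exon of the other strand. That is 33.3%, against 50.4% of rows with the same knockout minimum and 17.4% of all placed rows. A further 4 shared fewer bases, 6 had exons lying only inside introns of an opposite gene, PTPRD had opposite genes only inside its own introns, and 7 had no gene opposite. Chromosome 18 held 5 members, chromosome 3 held 4 and chromosome 5 held 3, and no other chromosome held more than 2. Pairs of members lay close together at 3 places. LINC00526 and AP001496.3 were 1657 bases apart and LINC01893 and AC103808.4 were 32023 bases apart, both on chromosome 18, and LINC01981 and LINC01967 were 82638 bases apart on chromosome 3.

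**Figure D2:**
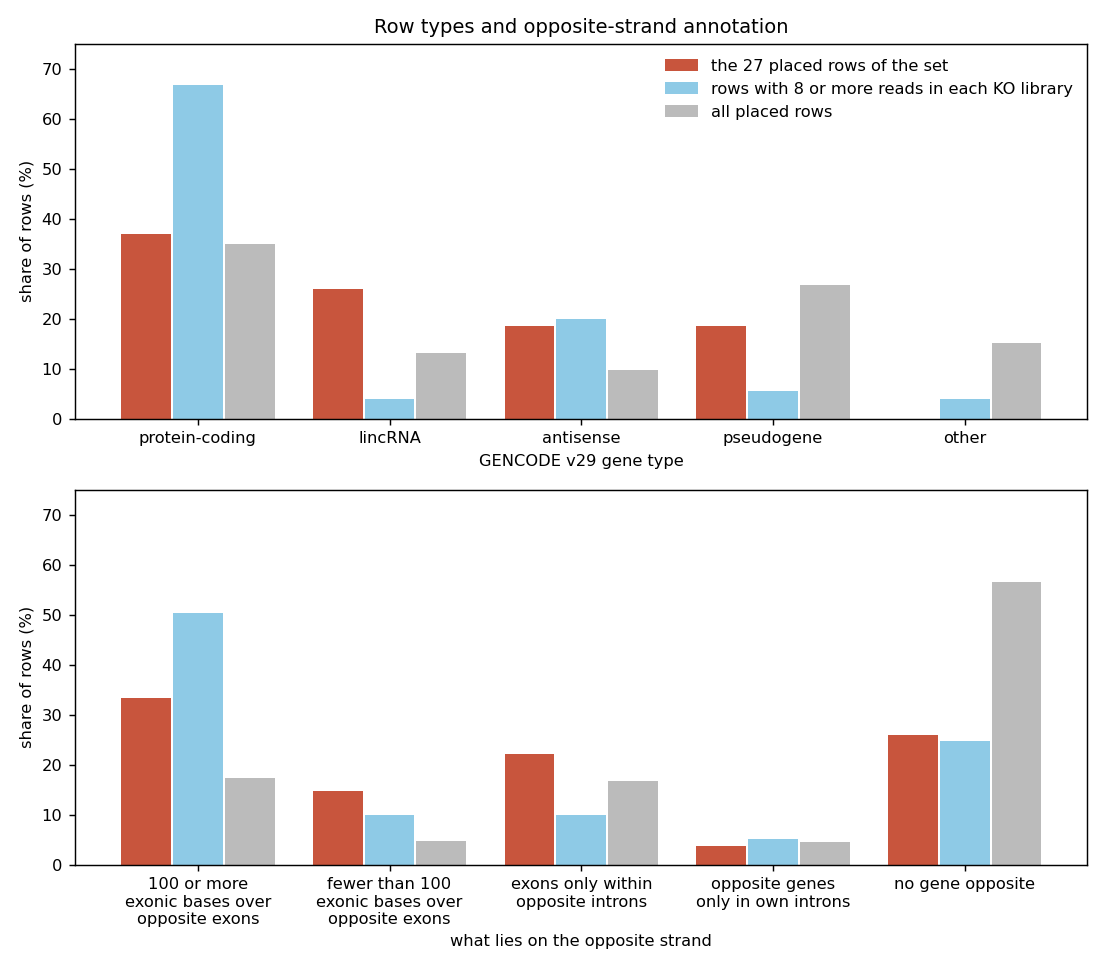
Bars give the percent of rows of each annotated type and of each opposite-strand class, for the 27 placed members, for rows with at least 8 reads in each knockout library and for all placed rows. LincRNA rows are 25.9% of members, against 4% of rows with the same knockout minimum and 13.2% of all placed rows. Rows over at least 100 opposite exonic bases are 33.3%, against 50.4% and 17.4%.

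Members at or inside protein-coding genes are described first. The RefSeq promoter windows of LYPD1 and of the opposite-strand genes DPYD, EDIL3 and TMEM229A are shown because a member is, or starts or lies opposite, each of these genes. Each window is 250 bases before to 50 bases after the start, GRCh38.p14, 5′ to 3′ on the gene's own strand, with CG dinucleotides in capitals. They lie at chr2:132671477-132671776 for LYPD1, chr1:97920985-97921284 for DPYD, chr5:84384831-84385130 for EDIL3 and chr7:124033018-124033317 for TMEM229A, all on the minus strand.
LYPD1: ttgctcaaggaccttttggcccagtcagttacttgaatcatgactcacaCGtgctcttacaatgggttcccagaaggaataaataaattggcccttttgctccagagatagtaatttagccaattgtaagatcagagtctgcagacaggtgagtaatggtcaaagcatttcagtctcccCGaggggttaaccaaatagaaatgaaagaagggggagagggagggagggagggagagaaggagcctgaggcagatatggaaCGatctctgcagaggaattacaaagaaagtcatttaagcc
DPYD: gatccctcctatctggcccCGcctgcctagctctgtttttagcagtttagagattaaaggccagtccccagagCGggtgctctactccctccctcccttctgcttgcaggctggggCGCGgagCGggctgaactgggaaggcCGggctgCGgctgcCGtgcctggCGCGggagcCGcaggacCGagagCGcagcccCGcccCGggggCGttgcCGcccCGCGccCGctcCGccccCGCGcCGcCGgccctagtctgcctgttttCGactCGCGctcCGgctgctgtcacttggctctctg
EDIL3: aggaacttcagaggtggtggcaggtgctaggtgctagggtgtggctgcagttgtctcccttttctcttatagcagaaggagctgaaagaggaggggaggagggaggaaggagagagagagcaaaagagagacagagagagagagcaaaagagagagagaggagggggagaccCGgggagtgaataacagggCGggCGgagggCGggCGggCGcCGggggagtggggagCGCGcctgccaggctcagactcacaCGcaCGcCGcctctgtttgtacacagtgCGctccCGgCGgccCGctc
TMEM229A: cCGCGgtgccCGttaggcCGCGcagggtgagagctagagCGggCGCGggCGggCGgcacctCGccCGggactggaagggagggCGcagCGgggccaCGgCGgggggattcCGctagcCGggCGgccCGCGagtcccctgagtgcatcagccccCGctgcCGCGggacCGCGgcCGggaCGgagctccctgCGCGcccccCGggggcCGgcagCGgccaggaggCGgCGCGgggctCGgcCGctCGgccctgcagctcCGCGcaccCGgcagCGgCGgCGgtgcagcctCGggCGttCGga
The windows held 3 CG dinucleotides in LYPD1, 29 in DPYD, 16 in EDIL3 and 48 in TMEM229A. Over 27305 symbols with a window the median was 14, and 98.1% of windows had fewer CG than TMEM229A, against 19% for LYPD1. A window was found for 14 members, with a median of 5.5 CG and a range of 0 in LINC01981 to 40 in PTPRD. TATAAA, searched on both strands, was in 4 of the 14 windows and in 12% of all windows. GGGCGG, which itself contains a CG, was in 3 of the 14 and in 44.6% of all windows.

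LYPD1 encodes a small Ly6-family protein that binds nicotinic acetylcholine receptors, and its gene (chromosome 2, 132644853 to 132671579, minus strand) ends inside GPR39, a zinc-sensing receptor gene of the plus strand. Their exons shared 1180 bases, 48.9% of the LYPD1 exons. The LYPD1 row held 23 and 36 reads in KO1, 16 and 20 in KO2, and 1 and 0 in WT. The GPR39 row held 2616 and 2775 reads in KO1, 2477 and 2779 in KO2, and 19 and 28 in WT. GPR39 was reached through LYPD1, which the rule chose by its counts, and the overlapping rows may share reads. The test of GPR39 is therefore not independent of the rule. LYPD1 reads in the knockout libraries were 0.892% of GPR39 reads. GPR39 was higher in both lines, by 6.92 ± 0.12 on the log2 scale in KO1 and 6.66 ± 0.12 in KO2 (SE, adjusted p = 3.85e-32 and 1.70e-31, edgeR quasi-likelihood test with Benjamini-Hochberg adjustment). The knockout and WT libraries of GPR39 did not overlap. AC010974.1, antisense to LYPD1, held 14 and 12 reads in KO1, 9 and 3 in KO2, and none in WT.

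AC006148.1 (chromosome 7, 124032205 to 124395118, plus strand) is an antisense RNA that starts 818 bases from the start of TMEM229A, a transmembrane protein gene of the minus strand, and shares 75 exonic bases with it. AC006148.1 held 49 and 42 reads in KO1, 71 and 85 in KO2, and none in WT, at least 32.1-fold higher in KO1 and 47.4-fold higher in KO2 than a floor of 3 reads over the WT group. TMEM229A held 12 and 2 reads in KO1, 12 and 13 in KO2, and none in WT. The member thus had more reads than the protein-coding row opposite, at 633% of its knockout reads.

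AC113383.1 (chromosome 5, 84384427 to 84490765, plus strand) starts 366 bases from the start of EDIL3, which encodes a secreted integrin-binding matrix protein, and shares 173 exonic bases with it. AC113383.1 held 22 and 12 reads in KO1, 53 and 75 in KO2, and 2 and 2 in WT. EDIL3 held 4 and 3 reads in KO1, 11 and 10 in KO2, and 1 and 0 in WT, too few to be tested. Both rows had more reads in each KO2 library than in each KO1 library.

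DPYD-AS1 (chromosome 1, 97095923 to 97322955, plus strand) lies inside DPYD, which encodes the rate-limiting enzyme of pyrimidine breakdown, and shares 109 exonic bases with it. DPYD-AS1 held 17 and 19 reads in KO1, 47 and 45 in KO2, and none in WT. DPYD held 1 and 0 reads in KO1, 3 and 4 in KO2, and none in WT. The GENCODE start of DPYD-AS1 was 899077 bases from that of DPYD, a longer gene model than the one behind the RefSeq window shown. The later enzymes of the pathway, DPYS and UPB1, had no read in any library.

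AC023194.3 shares all 502 of its exonic bases with ATP6V0D2, a proton pump subunit gene known from osteoclasts. AC023194.3 held 115 and 92 reads in KO1, 30 and 31 in KO2, and none in WT, at least 72.9-fold higher in KO1 and 18.5-fold higher in KO2 than the floor. ATP6V0D2 held 0 and 0 reads in KO1, 6 and 7 in KO2, and 1 and 0 in WT. The member was thus highest in the KO1 libraries, where the opposite row was at 0.

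GATA6, a transcription factor gene of endoderm and heart, encloses AC091588.1 (chromosome 18, 22175465 to 22176662, minus strand) in an intron. AC091588.1 held 25 and 20 reads in KO1, 19 and 12 in KO2, and 0 and 2 in WT. GATA6 held 36 and 45 reads in KO1, 43 and 48 in KO2, and 12 and 16 in WT, and was higher by 1.61 ± 0.36 in KO1 and 1.56 ± 0.36 in KO2 on the log2 scale (SE, adjusted p = 8.31e-04 and 8.10e-04). The 2 other antisense rows at this gene were higher in both lines as well. Both overlap GATA6, by 240 exonic bases for GATA6-AS1 and 321 for AC091588.3, so they may share reads with it. GATA6-AS1, 5587 bases from AC091588.1, held 409 and 358 reads in KO1, 281 and 319 in KO2, and 140 and 113 in WT. AC091588.3, 23957 bases from AC091588.1, held 2140 and 2104 reads in KO1, 1696 and 1871 in KO2, and 650 and 697 in WT. Their log2 differences were 1.68 ± 0.14 and 1.74 ± 0.07 in KO1, and 1.11 ± 0.14 and 1.27 ± 0.07 in KO2.

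**Figure D3:**
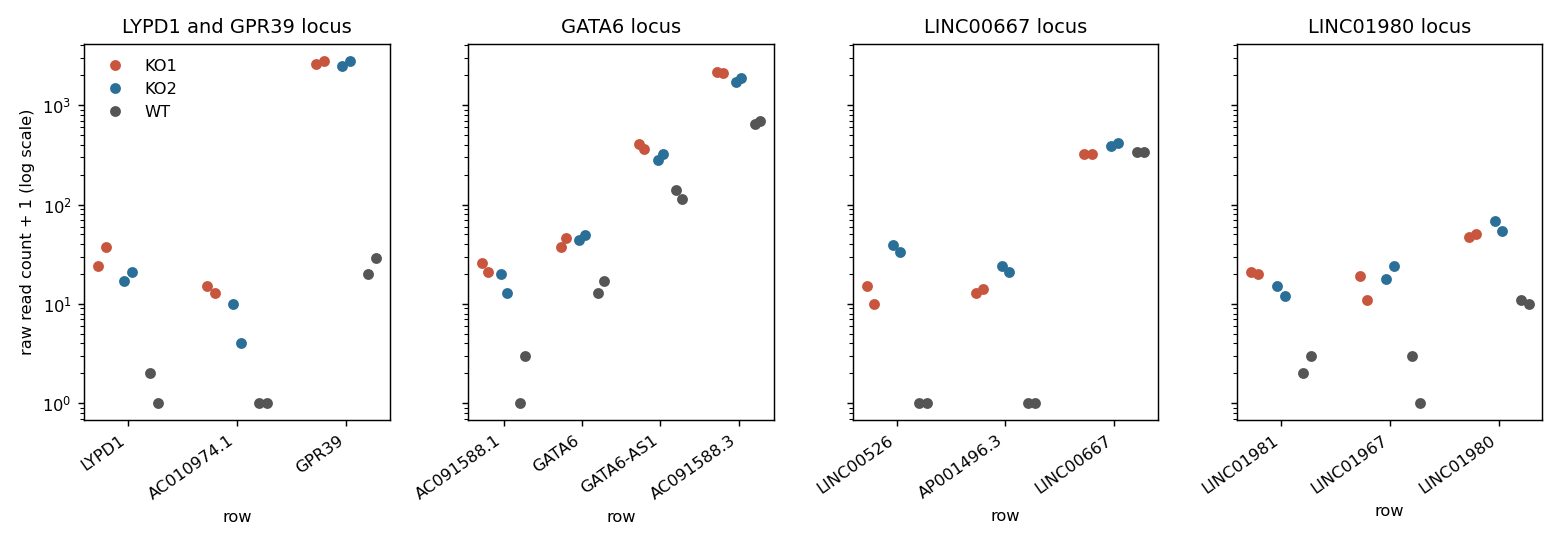
Raw read count plus 1, on a log axis, in each KO1, KO2 and WT library (points) for the rows at 4 loci, named along the horizontal axis. GPR39, at 2477 to 2779 reads in the knockout libraries, lies above its WT libraries at 19 and 28, while LINC00667 lies at 322 to 412 reads in all groups.

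The other protein-coding members encode secreted, membrane and nuclear proteins. SPINK5, whose product is a serine protease inhibitor of skin, held 40 and 33 reads in KO1, 51 and 35 in KO2, and none in WT. THBS2, a matricellular protein gene, held 22 and 24 reads in KO1, 32 and 51 in KO2, and none in WT. CHSY3, a chondroitin sulfate synthase gene, held 20 and 15 reads in KO1, 48 and 50 in KO2, and 2 and 0 in WT. CHSY3 starts 1445 bases from the opposite row AC008591.1, which was not WT-silent, with 101 and 103 reads in KO1, 131 and 166 in KO2, and 99 and 116 in WT.

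PTPRD, a receptor tyrosine phosphatase of synaptic adhesion, held 16 and 10 reads in KO1, 18 and 25 in KO2, and 1 and 0 in WT. RBMS3, an RNA-binding protein gene, held 12 and 18 reads in KO1, 23 and 16 in KO2, and none in WT. OR8D1 is an olfactory receptor gene. It held 20 and 12 reads in KO1, 23 and 27 in KO2, and none in WT.

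The members with the lowest counts included 2 further protein-coding rows. NR2C1, an orphan nuclear receptor, held 15 and 11 reads in KO1, 10 and 20 in KO2, and 1 and 2 in WT. MROH9 held 8 and 8 reads in KO1, 20 and 10 in KO2, and 1 and 1 in WT, and was the member that the filter on low counts removed. For NR2C1 the ratio to WT was 9.16 in KO1 (95% interval 2.81 to 47.3) and 9.11 in KO2 (2.83 to 46.6), and such intervals and the floor cover counting error only.

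Relatives of these genes varied in how far they were counted. Of 845 olfactory receptor rows, 719 had no read in any library, 10 could be tested, and no row other than OR8D1, whose own counts the rule used, was called in both lines. Of 10 SPINK rows 2 could be tested, and SPINK1 held 42 and 43 reads in KO1, 53 and 44 in KO2, and 30 and 36 in WT, which did not pass. Relatives that could not be tested were not shown to be unchanged. Of these, SPINK9 held 6 and 4 reads in KO1, 6 and 3 in KO2, and none in WT. OR8D2 held 1 and 3 in KO1, 6 and 2 in KO2, and none in WT, and SPINK2 held 1 read, in WT. THBS1 passed in neither line, and THBS3 was lower in KO1 alone (-0.82 ± 0.14 on the log2 scale, adjusted p = 1.55e-05). CHSY1 held 53 and 39 reads in KO1, 70 and 79 in KO2, and 32 and 35 in WT, and was called higher in KO2 (1.02 ± 0.27, adjusted p = 0.00314) and not in KO1 (adjusted p = 0.183). Among 12 metabotropic glutamate receptor rows, GRM4 was lower in both lines, with 7 and 6 reads in KO1, 2 and 9 in KO2, and 20 and 24 in WT (adjusted p = 0.0381 in KO1 and 0.00714 in KO2). Without KO1 replicate 1, KO1 replicate 2, WT replicate 1 or WT replicate 2 the KO1 adjusted p of GRM4 was 0.0997, 0.13, 0.108 and 0.184, and without KO2 replicate 1 or WT replicate 2 the KO2 value was 0.145 and 0.0605.

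Pseudogenes included the member with the most reads. RAC1P9 (chromosome 7, 53779783 to 53780263, plus strand), a copy of the small GTPase gene RAC1, held 159 and 154 reads in KO1, 67 and 74 in KO2, and 0 and 1 in WT. Its best alignment to RAC1 covered 124 of 392 bases at 73.4% identity, and RAC1 held 114 and 99 reads in KO1, 77 and 107 in KO2, and 74 and 69 in WT. VWFP1, a copy of the clotting factor gene VWF, was 97.2% identical to it over 2891 of 2907 bases, so the reads of these genes may be split between them and the VWFP1 row is uncertain. VWFP1 held 10 and 12 reads in KO1, 16 and 29 in KO2, and 0 and 1 in WT, and VWF held 2 to 5 reads in every library. IFNWP19, an interferon omega pseudogene, held 8 and 10 reads in KO1, 11 and 8 in KO2, and 1 and 0 in WT. TP53TG3GP held 8 and 11 reads in KO1, 21 and 23 in KO2, and none in WT.

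The lincRNA LINC00526 and the processed pseudogene AP001496.3 both lie on the minus strand opposite LINC00667, with 773 and 913 shared exonic bases. LINC00526 held 14 and 9 reads in KO1, 38 and 32 in KO2, and none in WT, and AP001496.3 held 12 and 13 in KO1, 23 and 20 in KO2, and none in WT. LINC00667 was counted in every library, with 322 and 323 reads in KO1, 387 and 412 in KO2, and 341 and 335 in WT. Its log2 differences of 0.01 in KO1 and 0.11 in KO2 did not pass (adjusted p = 0.955 and 0.510).

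LINC01967 and LINC01981 lie opposite LINC01980 on chromosome 3, LINC01967 sharing 107 exonic bases and LINC01981 inside an intron. LINC01967 held 18 and 10 reads in KO1, 17 and 23 in KO2, and 2 and 0 in WT, and LINC01981 held 20 and 19 in KO1, 14 and 11 in KO2, and 1 and 2 in WT. LINC01980 held 46 and 50 reads in KO1, 67 and 53 in KO2, and 10 and 9 in WT. It was higher by 2.40 ± 0.37 in KO1 and 2.51 ± 0.36 in KO2 on the log2 scale (SE, adjusted p = 3.52e-06 and 8.03e-07). Of 8 rows sharing at least 100 exonic bases with a member on the other strand, 3 passed the filter, and GPR39 and LINC01980 were called higher in both lines and none lower, where 13.5% of all tested rows were called in both lines with the same sign. These rows may share reads with members chosen by their counts, so their calls are not independent of the rule.

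LINC01893 and AC103808.4 lie on the plus strand of chromosome 18 with no gene opposite. LINC01893 held 14 and 32 reads in KO1, 59 and 66 in KO2, and none in WT, and AC103808.4 held 22 and 18 in KO1, 61 and 40 in KO2, and 0 and 1 in WT. GRM7-AS3 is named for GRM7, a presynaptic glutamate receptor gene that had no read in any library. It held 16 and 17 reads in KO1, 34 and 36 in KO2, and none in WT. LINC00645, the remaining lincRNA member, held 15 and 22 reads in KO1, 13 and 16 in KO2, and 0 and 2 in WT.

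The thresholds cut through a continuum of low counts. Just inside the knockout minimum were IFNWP19, MROH9 and TP53TG3GP, each with a lowest count of 8. Just outside were XKR5, with 10 and 7 reads in KO1, 47 and 51 in KO2, and 1 and 2 in WT, AC010230.1, with 9 and 7 in KO1, 35 and 51 in KO2, and 1 and 2 in WT, and AC011095.1, with 11 and 7 in KO1, 22 and 21 in KO2, and none in WT. Just inside the WT limit were AC113383.1 and LINC01981, among others. Just outside were LINC02228, with 43 and 33 reads in KO1, 30 and 33 in KO2, and 0 and 3 in WT, SATB1-AS1, with 14 and 12 in KO1, 15 and 28 in KO2, and 3 and 0 in WT, and AEN, with 18 and 11 in KO1, 17 and 22 in KO2, and 0 and 3 in WT.

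Levels of the members were then compared between KO1 and KO2, a contrast that the rule used only through its minimum count. Of the 28 members tested, 8 were called, which is 28.6%, against 20.4% of all 14184 rows, so the share was near the background. AC023194.3 and RAC1P9 were higher in KO1, and AC113383.1, LINC01893, CHSY3, LINC00526, AC103808.4 and DPYD-AS1 were lower in KO1 than in KO2, and over all tested rows 10.1% were higher in KO1 and 10.3% higher in KO2. The median log2 difference was -0.469 over tested members and -0.0169 over all rows, and 19 of the 28 were below 0.

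AC023194.3 averaged 14.2 CPM in KO1 and 3.61 CPM in KO2, a log2 difference of 1.97 ± 0.27 (SE, adjusted p = 6.15e-07). RAC1P9 averaged 21.5 CPM in KO1 and 8.34 CPM in KO2, a difference of 1.36 ± 0.21 (adjusted p = 3.80e-06). AC113383.1 averaged 2.32 CPM in KO1 and 7.55 CPM in KO2, a difference of -1.69 ± 0.36 (adjusted p = 5.51e-04). These 3 calls held in all 13 alternative fits run. The other 5 had differences of -1.22 ± 0.36 for LINC01893, -1.27 ± 0.39 for CHSY3, -1.39 ± 0.47 for LINC00526, -1.12 ± 0.38 for AC103808.4 and -1.13 ± 0.39 for DPYD-AS1, with adjusted p from 0.0131 to 0.0330.

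Each of those 5 calls was lost in some fits without 1 library, which leave 1 library in that group. A call can be lost in this way with little change in the difference, so a lost call alone does not show that 1 library decided it. The difference itself shrank for LINC01893, from -1.22 to -0.71 without KO1 replicate 1. For AC103808.4 the difference shrank from -1.12 to -0.76 without KO2 replicate 1. LINC01893 lost its call without KO1 replicate 1 (-0.71, adjusted p = 0.249) and without KO2 replicate 2 (-1.18, 0.0599). CHSY3 lost it without KO1 replicate 2 (-1.12, 0.099), KO2 replicate 1 (-1.27, 0.0748) and KO2 replicate 2 (-1.28, 0.0765). LINC00526 lost it without those same 3 libraries (-1.15, -1.23 and -1.55, with adjusted p of 0.178, 0.247 and 0.078). AC103808.4 lost it without KO1 replicate 1 (-1.23, 0.0618), KO1 replicate 2 (-1.03, 0.126) and KO2 replicate 1 (-0.76, 0.408). DPYD-AS1 lost it without any 1 of the 4 knockout libraries (adjusted p from 0.0692 to 0.179).

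Members not called were not shown to be alike in the lines. LYPD1 differed by 0.93 ± 0.45 (adjusted p = 0.151) and AC006148.1 by -0.56 ± 0.27 (0.151). The closest to 0 were NR2C1 at 0.01 and SPINK5 at -0.03 ± 0.34, with adjusted p of 0.995 and 0.973.

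**Figure D4:**
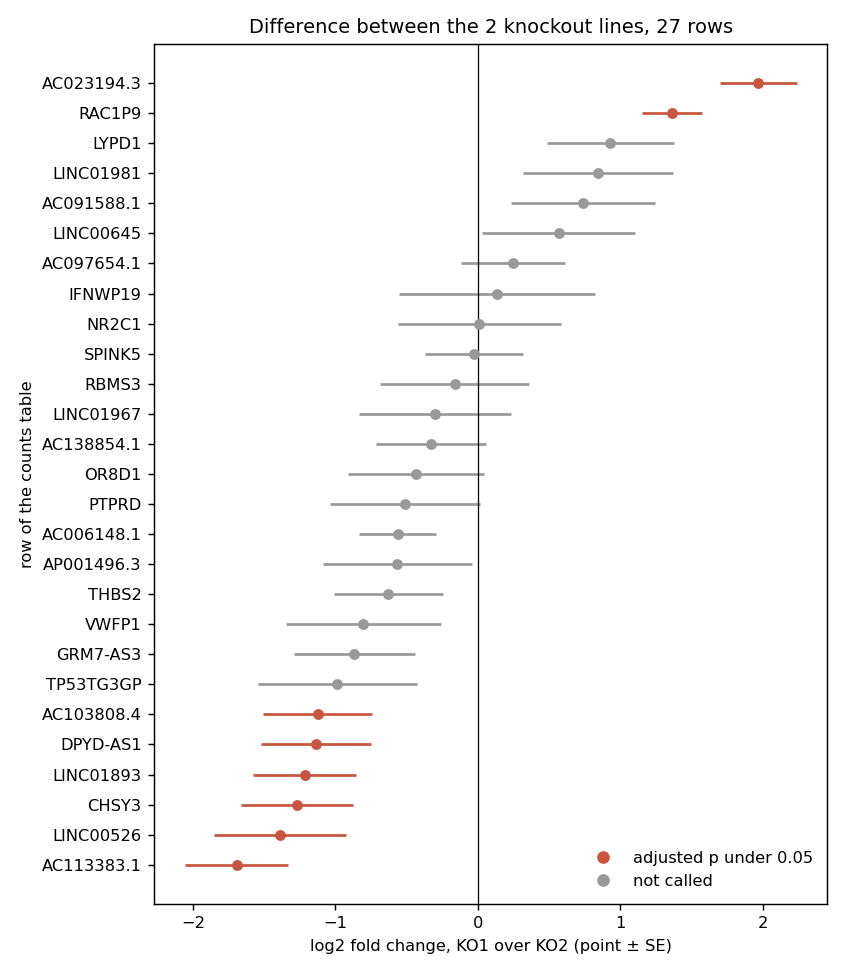
Log2 difference of KO1 over KO2 for 27 of the 28 tested members, with bars of 1 SE, called members marked. AC023194.3 and RAC1P9 lie above 0 and the 6 other called members below it.

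Genomic neighbours were rows, not members, whose gene body lay within 500 kb of a member. There were 519, of which 446 were not tested, 309 of these with no read in any library. Of the 73 tested, 10 were higher in both lines (13.7%, against 5.79% of all tested rows) and 5 were lower in both (6.85%, against 7.72%). Among the 10 was JAKMIP2-AS1, which met the thresholds itself and was left out by name. AC011095.1, SLC25A15P5, AC010974.1 and TMEM229A, also among the 10, had no WT read and could be tested only through their knockout counts. The 13.7% is therefore no test of the neighbours. Within 100 kb, 9 of 14 tested rows were higher and none lower, and between 100 and 500 kb 1 of 59 was higher and 5 were lower. Of the 14, 7 overlapped a member, and 5 of these 7 were higher. Overlapping rows may share reads with a member chosen by its counts, and the 1 higher row farther away was JAKMIP2-AS1. The contrast by distance is therefore a description and carries no test. The 9 were GPR39 and AC010974.1 at LYPD1, GATA6, GATA6-AS1 and AC091588.3 at AC091588.1, LINC01980, TMEM229A, AC011095.1 and SLC25A15P5. Among tested rows with more than 2 reads in a WT library, a restriction chosen after the data were seen, 5 of 67 neighbours were higher (7.46%, against 5.43% of all such rows) and 5 were lower (7.46%, against 7.79%). These shares are near the background. The 5 higher rows were 5 of the 9 such rows within 100 kb and lay at 3 members' loci, those of LYPD1, AC091588.1 and LINC01967, and none of 58 farther away was higher. For 7 members no neighbour could be tested.

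Of those rows, 4 had no read in WT and passed the filter on low counts only through the knockout libraries, so they had to differ to be tested. AC011095.1, 64255 bases from LINC01893, was at least 6.34-fold higher in KO1 and 13.1-fold higher in KO2 than the floor. SLC25A15P5, 43522 bases from VWFP1, held 13 and 13 reads in KO1, 10 and 4 in KO2, and none in WT. Its KO2 adjusted p of 0.0062 became 0.112 without KO2 replicate 1, 0.0517 without WT replicate 1 and 0.0572 without WT replicate 2. For AC010974.1 the KO2 adjusted p of 0.0112 became 0.181, 0.0781 and 0.0845 without those libraries. For TMEM229A the KO1 adjusted p of 0.00718 became 0.279 without KO1 replicate 1, 0.05 without WT replicate 1 and 0.057 without WT replicate 2.

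The 5 lower neighbours lay 402861 to 443783 bases from a member. VSIG2 held 46 and 71 reads in KO1, 49 and 61 in KO2, and 135 and 132 in WT, and fell by 1.11 ± 0.22 in KO1 and 1.41 ± 0.23 in KO2 on the log2 scale. AP000866.5 held 1143 and 1088 reads in KO1, 1580 and 1562 in KO2, and 1786 and 1779 in WT. Both are near OR8D1, as is NRGN, a postsynaptic calmodulin-binding protein gene, with 12 and 7 reads in KO1, 16 and 12 in KO2, and 33 and 30 in WT. AP000866.5 lies inside the NRGN gene body on the other strand, so these rows may share reads. VSIG2 lies just beyond NRGN, so VSIG2, AP000866.5 and NRGN are not separate loci. NRGN lost its call without KO1 replicate 2, KO2 replicate 2 or WT replicate 1 (adjusted p up to 0.167). AL359922.2, near IFNWP19, lost its KO2 call without KO2 replicate 2 (0.062) or WT replicate 2 (0.102). ADAMTS19-AS1, near CHSY3, held 7 and 10 reads in KO1, 20 and 28 in KO2, and 54 and 31 in WT, and its KO2 call rested on an adjusted p of 0.05 after rounding. That p became 0.232, 0.0618 and 0.591 without KO2 replicate 1, KO2 replicate 2 or WT replicate 1, and 0.0669 with the replicate block, and the call held in 5 of 13 alternative fits.

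**Figure D5:**
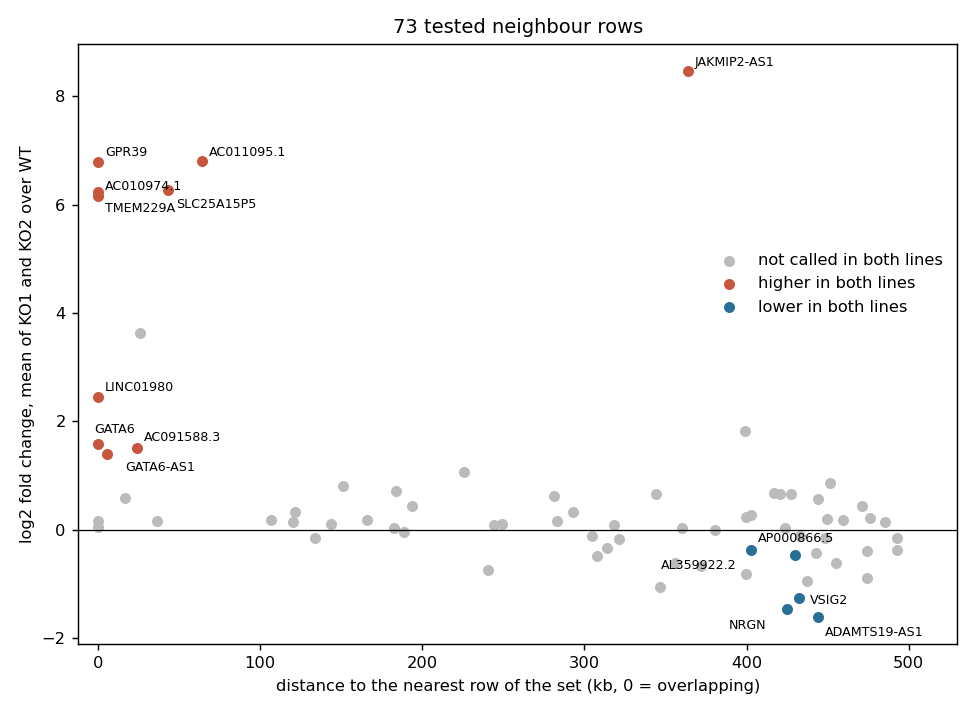
Log2 fold change of the mean of KO1 and KO2 over WT for the 73 tested neighbour rows, against the distance in kb to the nearest member (0 is overlapping), with rows called in both lines coloured and named. Within 100 kb, 9 of 14 rows are higher in both lines, 5 of the 9 overlapping a member, and beyond it 1 of 59 is, JAKMIP2-AS1. Fold changes near 6 and above rest on WT counts of 0 to 2 reads, except GPR39 with 19 and 28.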

How the data were processed

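RNA of HEK293T cells was sequenced in 6 libraries, 2 each of KO1, KO2 and WT, and groups follow the labelled genotype. The labels' protocols name TRNzol for extraction and a directional library kit. Per the submitters' processing notes, the builds were hg38 and GRCh38.p6 and the tools limma, HTSeq 0.6.1p1, STAR 2.7.1a and Trim Galore. The annotation release is not given in the sources used here. The count table that the authors deposited holds whole reads per row and no normalization. The authors also deposited FPKM values with a gene size per row. That size equalled the annotated exonic bases in only 4 of 19 members with both, so FPKM was not used and no level per length was compared between rows.

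After TMM scaling and filterByExpr, 14184 rows entered 1 edgeR 4.0.16 quasi-likelihood fit (R 4.3.3) of the 3 groups, with no covariates. Its residual degrees of freedom were 3 and the prior ones 31.9. The threshold was 0.05 for p-values adjusted by Benjamini-Hochberg over every tested row. A row called in both lines passed in each, in the same direction. KO1 and KO2 were compared with the same 2 WT libraries. The labels do not say whether libraries came from separate cultures, and the p-values reflect no more than the spread between libraries, which may be technical. Replicate numbers did not pair libraries (correlations -0.0226, -0.0264 and -0.0214). Genes were placed by symbol on GENCODE v29. Strand overlaps used bedtools 2.31.1, gene copies BLAST 2.17.0, and DESeq2 1.42.0 was an alternative. Promoter sequences are from RefSeq GRCh38.p14. Folds against a WT sum of 0 use a floor of 3 reads over the group, and ratios carry 95% intervals. Named rows were the protein-coding members, the 10 members highest in CPM, those over at least 100 exonic bases of a protein-coding gene, those called between lines, those beside the thresholds, and the 5 neighbours of smallest p each way. Other members and neighbours were named for completeness, after their values were seen. The values of 1 member are not reported here, though the counts over members include it. The members and lists were chosen with earlier results of these data known.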

Additional observations from a re-analysis of the deposited data

Results flagged for a closer look

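The difference between KO1 and KO2 itself passed the test for 8 of 28 tested members, or 28.6%, against 20.4% of all rows. AC023194.3 at 1.97 and RAC1P9 at 1.36 on the log2 scale were higher in KO1. AC113383.1 at -1.69, LINC00526 at -1.39, CHSY3 at -1.27, LINC01893 at -1.22, DPYD-AS1 at -1.13 and AC103808.4 at -1.12 were lower in KO1 than in KO2. AC023194.3, RAC1P9 and AC113383.1 passed in every alternative fit, and the other 5 did not. Summed counts of the HEK293 markers and the rows opposite them also differed between the lines, at 48971 and 51809 in KO1 against 101294 and 105704 in KO2. Most of these reads were in VIM-AS1 and AL133415.1, the rows opposite VIM. The part of the marker counts in the differences between members was not tested.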

How the results depend on the processing

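Of the 8 members called between KO1 and KO2, 3 were called by DESeq2, and leaving out 1 library gave 4 to 8. The count was 8 with the replicate block. Of 15 neighbours called in both lines, 9 were called by DESeq2 and 9 lay within 100 kb, leaving out 1 library gave 12 to 17, and the replicate block gave 14. Restricted to rows with more than 2 reads in a WT library, added after the data were seen, 10 of the 15 calls remained. DESeq2 gave no adjusted p in KO2 for AC010974.1, AC011095.1, SLC25A15P5 and TMEM229A. The 2 opposite-strand rows called, GPR39 and LINC01980, were 2 in each fit including the replicate block, and 5 when gene bodies replaced exons. The blocked KO1 adjusted p of GRM4 was 0.0563. The number of members, 29, depends on the thresholds: it was 13 with no WT read, 98 with up to 5 WT reads, 131 with at least 4 knockout reads, 11 with at least 16, and 33 to 72 when 1 library was left out of the rule. Counts scaled to the mean library total gave 24 members, all of them among the 29. With 2 libraries a group and counts near 8, changes in single rows are poorly determined.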
